A study of Mus musculus with 12 samples.

Results

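The 47 genes described here are interferon response and antigen presentation genes: sensors of viral RNA, transcription factors, antiviral effectors, the ISG15 and ADP-ribose enzymes, interferon-inducible GTPases, 1 chemokine and the MHC class I presentation genes. They were chosen by symbol from a list, with no measured value in the rule, but earlier results of these data were known at the time. All 47 were found among 24279 genes in the deposited table, and 44 were among the 15186 genes expressed highly enough to be tested. Zbp1, Oas3 and Mx1 were not tested.

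The cells were primary fibroblasts, a mixed population cultured from mouse embryos of embryonic day 12.5, and their polyadenylated RNA was sequenced. The 4 groups had 3 libraries each: Rsg1L3P/L3P (mutant) cells at fortified folic acid, wild type cells at fortified folic acid, and, at moderate folic acid, Rsg1L3P/L3P cells and wild type cells. Fortified means F3 mice fed 10 ppm folic acid and medium with 3600 ng/mL; moderate means F3 mice fed 2 ppm and medium with 225 ng/mL. Diet and medium changed together and cannot be told apart. Rsg1 encodes a GTPase-like protein of the complex that helps to build primary cilia, and no agent that induces interferon is named in the labels. Separate embryos for the 3 libraries are not stated in the labels, so every p-value measures the spread between these libraries, which may be technical.

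Cells that sense viral nucleic acid, through proteins such as RIG-I (Ddx58) and MDA5 (Ifih1), make type I interferon. Interferon binds its receptor on the same and on neighbouring cells, and the kinases Jak1 and Tyk2 then activate a transcription factor complex that contains Stat2 and Irf9 and binds interferon-stimulated response elements in the promoters of antiviral genes. Fibroblasts are a classic cell type for this response, and they keep a low level of many of these genes without infection. Type II interferon acts in part through Irf1, and raises guanylate-binding proteins and the genes that load peptides onto MHC class I.

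Letters matching the core of the response element stood in many of the promoters. From the genes with a match 6 are shown, to cover the effector, OAS, ISG15, chemokine, GTPase and class I groups. Not all of them lead the comparisons below, and some genes that do, such as Irf1 and Samd9l, had no match. Sequences are from RefSeq (GRCm38.p6, the assembly of the mm10 build that the submitters' processing notes name), 5′ to 3′ on the strand of the gene. Capitals mark a match to GAAANNGAAA or to its reverse complement TTTCNNTTTC. Isg15 lies at chr4:156200850-156200909 (minus strand, motif at positions -66 to -57 from the RefSeq start), Ifit1 at chr19:34640779-34640838 (plus, -85 to -76), Oas1a at chr5:120907526-120907564 (minus, -14 to -5), Cxcl10 at chr5:92349068-92349127 (minus, -213 to -204), Gbp2 at chr3:142620579-142620638 (plus, -59 to -50) and B2m at chr2:122147523-122147582 (plus, -139 to -130).
Isg15: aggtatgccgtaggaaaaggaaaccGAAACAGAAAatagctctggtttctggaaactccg
Ifit1: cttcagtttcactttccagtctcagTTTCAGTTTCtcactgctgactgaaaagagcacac
Oas1a: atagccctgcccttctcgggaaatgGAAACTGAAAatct
Cxcl10: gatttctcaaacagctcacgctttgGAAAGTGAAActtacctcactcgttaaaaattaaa
Gbp2: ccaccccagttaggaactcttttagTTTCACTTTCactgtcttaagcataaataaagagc
B2m: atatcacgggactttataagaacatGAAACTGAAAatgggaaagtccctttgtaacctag

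Of the 47 genes, 36 had a promoter in the RefSeq table, taken as 250 bases before to 50 bases after the start. GAAANNGAAA, searched on both strands, was found in 17 of these 36 (47.2%), against 3.99% of 27025 genes with a promoter in the table. TTCNNNGAA, the core of the type II interferon response element and the same on both strands, was found in 8 of 36 (22.2%), against 9.55% of all genes. Several matches overlapped: Isg15 held 3 matches to GAAANNGAAA in a row, each overlapping the next, and Oas1a, Bst2 and Gbp3 held overlapping pairs. The 19 genes with a promoter and no match to GAAANNGAAA included Irf1, Irf7, Samd9l, Xaf1, Dtx3l, Tap1, H2-K1 and H2-D1. A match describes the letters only, and binding was not measured. Dhx58, Zbp1, Oas2, Mx1, Mx2, Rtp4, Ly6e, Usp18, Parp9, Parp14 and Iigp1 had no entry.

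Many of the genes are neighbours in the GENCODE annotation of GRCm38. Ifit1, Ifit2 and Ifit3 lie on chromosome 19 and Gbp2, Gbp3 and Gbp7 on chromosome 3, all on the plus strand. Oas2 and Oas3, and Oasl1 and Oasl2, form pairs on chromosome 5. Dtx3l and Parp9, whose proteins act as a complex, start 681 bp apart on opposite strands of chromosome 16 and overlap there, and Cmpk2 and Rsad2 start 12752 bp apart on chromosome 12. The sources do not state whether counting used the strand, so reads from the stretch that Dtx3l and Parp9 share cannot be assigned with certainty. Ifit3, Oas1a, H2-K1, H2-D1, Gbp2, Gbp3 and Gbp7 were taken as genes with near-identical relatives. Sequences were not compared, and other genes of the set may have close relatives too. The values of such genes are uncertain to the extent that estimated counts were split among copies.

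The 12 libraries held 39339100 to 48475900 estimated counts. All 12 fibroblast markers were expressed, with summed levels of 8683 to 11038 TPM in fortified mutant, 13763 to 19423 in fortified wild type, 11516 to 12203 in moderate mutant and 6446 to 12686 in moderate wild type cells. RNA of macrophage markers was detected in every library, and macrophages express many of the same genes as the set. The 14 markers summed to 67.5 to 109.8 TPM in fortified mutant and 121 to 339 in fortified wild type cells. The sums were 61.0 to 345 TPM in moderate mutant and 62.8 to 408 in moderate wild type cells. Each of the 14 had counts in at least 1 library, and the presence of macrophages themselves was not tested. On the first principal component of all genes fortified mutant 2 (48.1), fortified mutant 3 (57.5) and moderate wild type 1 (68.0) lay at one end, moderate wild type 2 (-68.6) and moderate wild type 3 (-53.7) at the other, and the other libraries from -18.9 to 4.74. Values without the 3 libraries at the positive end, and without the 2 at the negative end, are given beside the results; a group left with 1 library is assumed in those fits to vary like the other groups. The 3 at the positive end also had the highest summed skeletal muscle markers (3978 to 5627 TPM, against 804.7 to 3899 TPM in the others) and neuron markers (266 to 473 TPM, against 114 to 199 TPM). Xist, a marker of female cells, was present in 6 of 6 mutant and 2 of 6 wild type libraries. Counts of Y-linked genes were present in 3 libraries, moderate wild type 2 and 3 and fortified wild type 3. Fortified wild type 2 had neither (9 Xist and 0 Y-linked counts). Every genotype comparison therefore also differs in these markers of sex, and the 2 cannot be fully told apart. Rsg1 itself was low everywhere, at 0.669 to 0.866 CPM in fortified mutant, 0.725 to 1.03 in fortified wild type, 0.800 to 1.12 in moderate mutant and 0.488 to 0.964 in moderate wild type cells, so its level does not check the labels of a mutation that need not alter it. CPM are counts per 1000000 counts of the TMM-scaled library, and TPM are the deposited values per transcript length, used only to compare genes.

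Most of the genes were expressed at low levels. The median of the mean levels was 1.70 TPM for the 44 tested genes, against 14.2 TPM for all tested genes. Of the 47 genes 20 had a mean under 1 TPM, 15 lay from 1 to 10 TPM and 12 had 10 TPM or more. B2m, the light chain of every MHC class I molecule, had a mean of 630 TPM and made up 67.8% of the summed level. It was followed by Ly6e, a surface protein that limits virus entry (65.0 TPM), and the virus tether Bst2 (34.5 TPM). The class I heavy chains H2-D1 and H2-K1 had 19.4 and 18 TPM. Lower still were Lgals3bp with 15.1 TPM, Eif2ak2 (PKR), the kinase that halts translation on double-stranded RNA, with 15 TPM, and the transcription factor Irf1 with 13.8 TPM. At the other end the RNA-activated synthetase genes Oas2 and Oas3 had means of 0.0653 and 0.0227 TPM, and Mx1 0.0259 TPM.

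None of the 7 interferon genes looked up was detected: Ifnb1, Ifna1, Ifna2, Ifna4, Ifng, Ifnl2 and Ifnl3 had 0 counts in all 12 libraries. The receptors and kinases that read interferon were expressed. The group means of Ifnar2, a chain of the type I receptor, ran from 43.3 TPM in fortified mutant to 57.3 TPM in moderate mutant cells, and those of the kinase Jak1 from 73.7 TPM in fortified mutant to 85.0 TPM in fortified wild type cells.

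**Figure D1:**
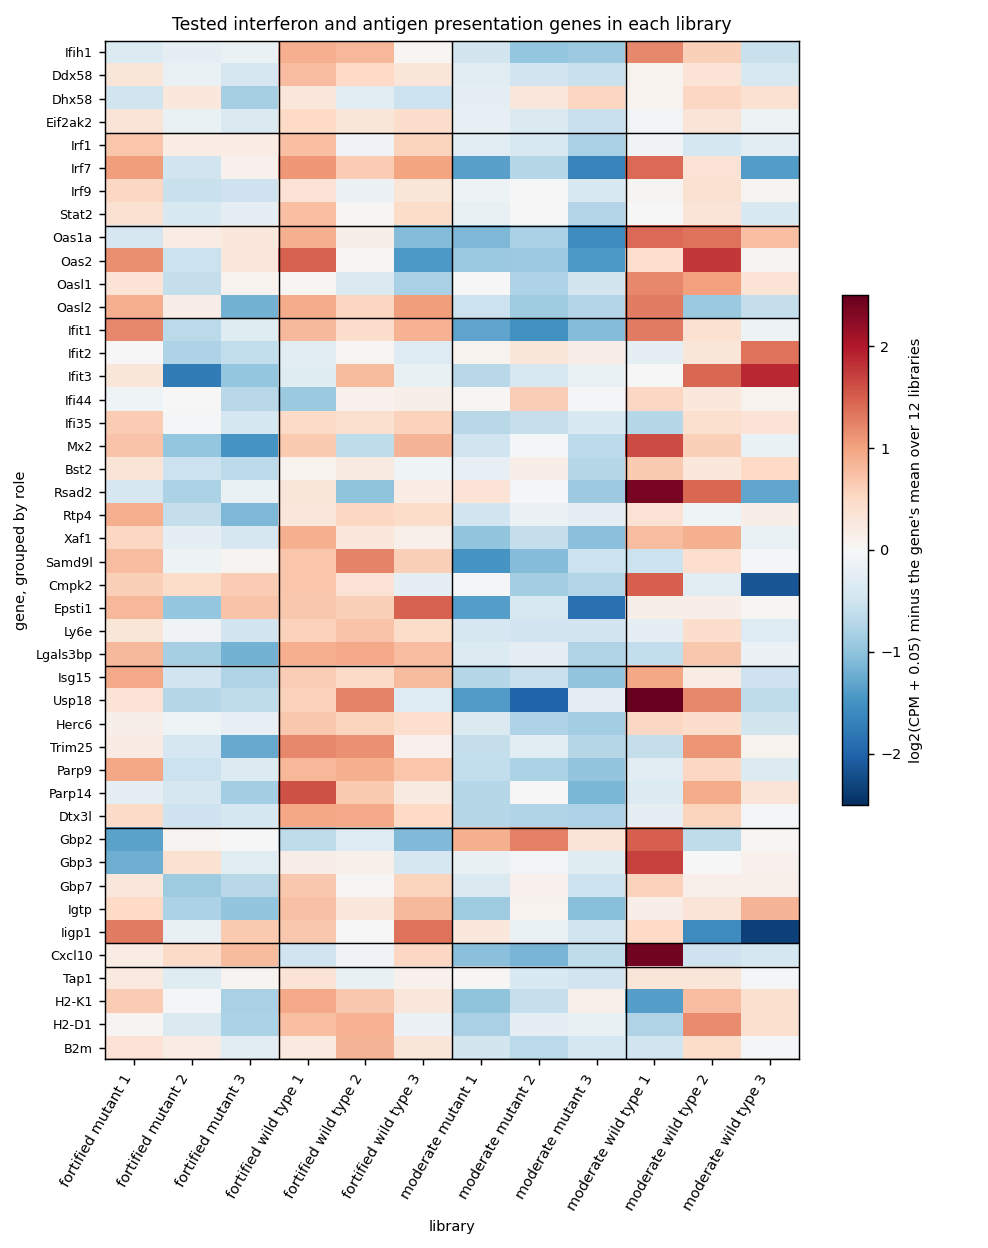
Heat map of the 44 tested genes (rows, grouped by role) in the 12 libraries (columns), as log2(CPM + 0.05) minus the mean of each gene over the libraries; red is above and blue below that mean. The 3 moderate mutant columns are mostly blue, the 3 fortified wild type columns mostly red, and fortified mutant 1 differs from fortified mutant 2 and 3.

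Mutant and wild type cells were first compared at moderate folic acid. Nearly the whole set measured lower in mutant cells, and Oas2, Usp18, Oas1a, Cxcl10 and Ifit1 had the most negative log2 fold changes. Of the 44 genes 42 had negative log2 fold changes, against 56.4% of all tested genes, and the median was -0.88 where all tested genes had -0.05. The 3 mutant libraries all lay below the 3 wild type libraries for 20 genes, against 6.68% of all tested genes, and above them for 0. No gene of the set passed an adjusted p of 0.05 by edgeR's quasi-likelihood test, and the background was 0% (0 of 15186 genes). At an unadjusted p under 0.05 there were 14 genes of the set, all lower, against 5.14% of all tested genes that were lower at this p; leaving out 1 library gave 9 (without moderate mutant 3) to 21 (without moderate wild type 3 or fortified mutant 1). DESeq2 called 2 of the 44, Oas1a with an adjusted p of 0.0236 and Xaf1 with 0.0467, against 50 of all 15186 tested genes. It gave no adjusted p for 5 of the 44 and for 1492 of all tested genes, which could not be called.

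Among the OAS enzymes, which make the oligoadenylates that switch on RNase L, Oas1a had 0.187, 0.246 and 0.125 CPM in the moderate mutant libraries, against 1.34, 1.29 and 0.826 CPM in the moderate wild type libraries. All 3 mutant libraries lay well below all wild type libraries, a log2 fold change of -2.61 (SE 0.58, adjusted p = 0.588 by edgeR). Oasl1, which in mice limits translation of Irf7, had 0.187, 0.0894 and 0.125 CPM in mutant and 0.498, 0.437 and 0.252 CPM in wild type cells (-1.54, SE 0.55), again without overlap. Oas2 rested on 1, 1 and 0 counts in mutant and 6, 16 and 4 counts in wild type libraries. All 4 tested OAS genes were negative, with a median of -2.07. Oas3 had 1, 3 and 1 counts in mutant and 1, 10 and 2 counts in wild type libraries, too few to compare.

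All 15 tested antiviral effectors were negative (median -0.94), and 8 of them did not overlap. Ifit1, which binds viral RNA caps, had 0.312, 0.268 and 0.375 CPM in mutant cells, against 2.18, 1.13 and 0.780 CPM in wild type cells (log2 fold change -2.09, SE 0.58). Its neighbour Ifit3, a partner of Ifit1, had 1.08, 1.34 and 1.58 CPM in mutant and 1.80, 4.88 and 6.72 CPM in wild type cells (-1.74, SE 0.60). Xaf1, an interferon-induced promoter of cell death, had 1.44, 1.90 and 1.38 CPM in mutant and 5.00, 5.37 and 2.59 CPM in wild type cells (-1.46, SE 0.39). In each of these 3 genes the mutant libraries were close to one another and the wild type libraries were spread. Epsti1 (-1.91), Samd9l, a brake on viral translation (-1.0), Bst2 (-0.69) and Rtp4 (-0.47) also did not overlap. Ly6e had 45.8, 44.1 and 44.5 CPM in mutant and 52.7, 83.2 and 49.4 CPM in wild type cells (-0.46, SE 0.22), a narrow separation. Ifi44 had -0.07 (SE 0.33) and Ifit2 -0.45 (SE 0.34).

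The 7 genes of the ISG15, ubiquitin and ADP-ribose group were all negative (median -0.90). Usp18, the protease that removes ISG15 and dampens the interferon receptor, had 0.125, 0.0671 and 0.350 CPM in mutant cells, against 2.77, 1.03 and 0.252 CPM in wild type cells (-2.90, SE 0.88). The groups overlapped, since moderate wild type 3 lay below moderate mutant 3. Moderate wild type 1 was the highest, and without it the log2 fold change was -1.82. Isg15 (-1.12), the ubiquitin-like modifier itself, Dtx3l (-0.89) and Parp9 (-0.81) did not overlap. Trim25, the ligase that activates RIG-I, had 14.6, 18.4 and 13.3 CPM in mutant and 14.6, 47.1 and 23.4 CPM in wild type cells (-0.88, SE 0.45), and moderate wild type 1 lay among the mutant libraries.

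The sensor Ifih1 (MDA5) had 1.35, 0.939 and 0.976 CPM in mutant and 4.39, 2.85 and 1.26 CPM in wild type cells (-1.38, SE 0.44), and moderate wild type 3 lay within the mutant range. Eif2ak2 had 27.4, 24.8 and 21.4 CPM in mutant and 30.2, 39.4 and 29.0 CPM in wild type cells (-0.42, SE 0.20), without overlap. Irf7, which drives interferon genes, had 0.167, 0.291 and 0.125 CPM in mutant and 1.43, 0.668 and 0.161 CPM in wild type cells (-1.94, SE 0.72), with the same library inside the mutant range. The T cell attractant Cxcl10 had 0.271, 0.246 and 0.375 CPM in mutant and 3.46, 0.411 and 0.436 CPM in wild type cells (-2.27, SE 0.77). Its groups did not overlap, but the size of the difference came from moderate wild type 1, without which it was -0.51.

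The interferon-inducible GTPases were the 1 group with mixed signs: Igtp (-1.05) and Gbp3 (-1.04) were lower without overlap, as was Gbp7 (-0.56), while Gbp2 (0.29) and Iigp1 (0.55) were positive within their errors of 0.53 and 0.72. The 4 class I genes were all negative (Tap1 -0.47, H2-K1 -0.60, H2-D1 -0.86 and B2m -0.55), and all 4 overlapped. B2m had 158, 136 and 159.8 CPM in mutant and 155, 299.7 and 211 CPM in wild type cells (SE 0.25). H2-D1 had 8.16, 12.2 and 12.6 CPM in mutant and 8.46, 32.7 and 18.9 CPM in wild type cells (SE 0.44). In B2m, H2-K1 and H2-D1 the low wild type library was moderate wild type 1.

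By limma on log2(TPM + 1), 40 of 44 genes were negative with a median of -0.27, on a scale where the median of all tested genes was 0.12. Each moderate mutant library lay below the wild type mean for most of the set, with 41, 40 and 40 of 44 genes lower. Without the 3 libraries at the positive end of the first component the median was -0.72 and 39 of 44 genes were negative, and Oas1a had -2.46. Without moderate wild type 2 and 3, at the other end, only moderate wild type 1 was left to compare with: the median was -0.62, 37 of 44 genes were negative, and Cxcl10, Ifih1 and Usp18 passed edgeR's test as lower. Markers of other cells differed too: 12 of 12 cycling genes were lower in mutant cells (median -0.79; summed 568 to 587 TPM in mutant and 605 to 1427 TPM in wild type cells), and 11 of 14 macrophage markers were (median -0.60). Moderate wild type 1 had the second lowest macrophage level of all libraries (62.8 TPM summed, against 61.0 TPM in moderate mutant 3) and the highest value of all 12 libraries in 15 of the 44 genes. The part of these markers in the result was not tested. In bulk RNA, fewer cells of a type and less RNA per cell cannot be told apart.

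**Figure D2:**
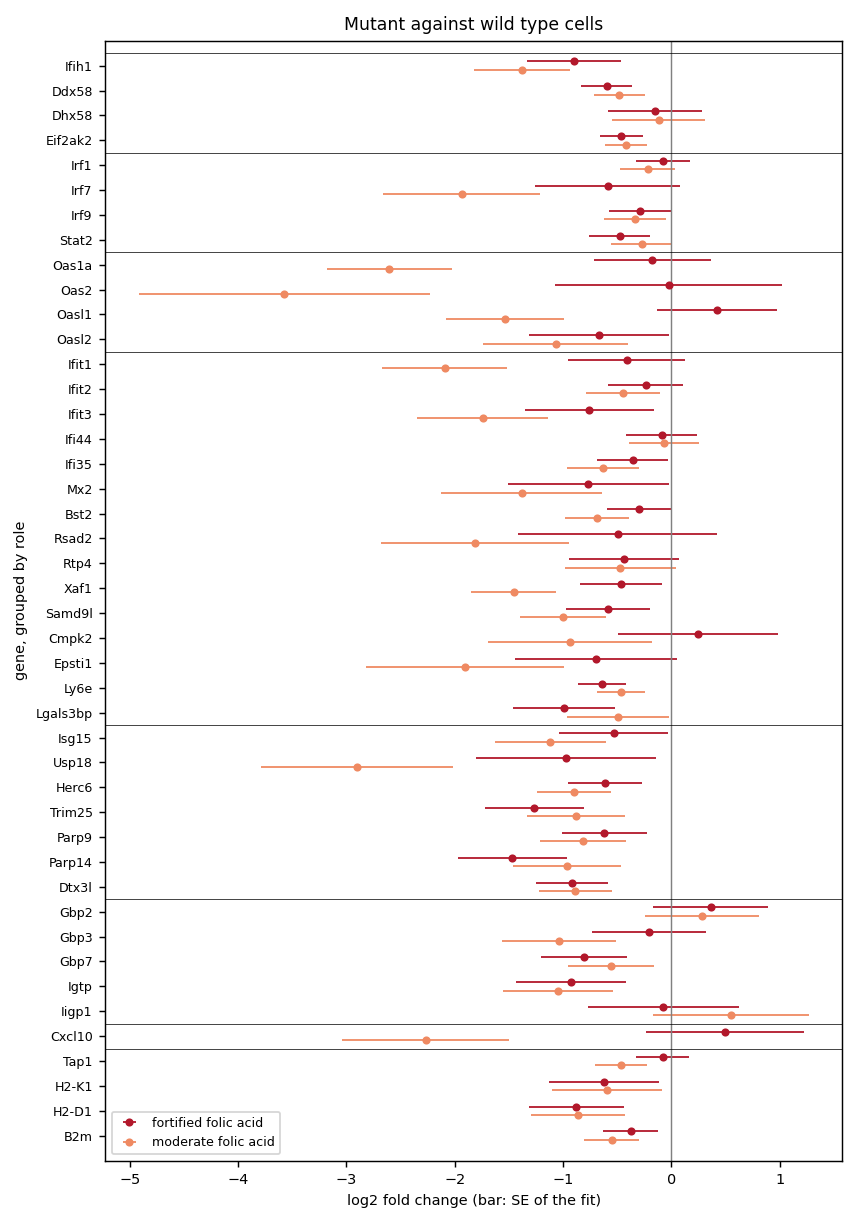
Log2 fold changes of mutant against wild type cells for the 44 tested genes, at fortified (dark red) and moderate (orange) folic acid; bars are standard errors of the edgeR fit. Most points lie left of 0 at both levels, and the OAS genes, Ifit1, Usp18 and Cxcl10 lie further left at moderate folic acid.

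The same question was asked at fortified folic acid. The set again measured lower in mutant cells, by less, and other genes led: the ADP-ribosyl transferase Parp14, Ly6e, Trim25, Dtx3l and the RNA sensors. Of the 44 genes 40 were negative, against 49% of all tested genes, and the median was -0.49 where all tested genes had 0.01. No gene of the set passed edgeR's test (background 0%), and DESeq2 called 0 of them and 6 genes in all. At an unadjusted p under 0.05 there were 6 genes of the set, all lower, against 2.03% of all tested genes that were lower at this p. That count moved with single libraries: it was 1 without fortified mutant 3 or fortified wild type 1, 3 without fortified mutant 2 and 20 without fortified mutant 1. Limma-voom gave 27. The mutant libraries lay below the wild type libraries without overlap for 6 genes, against 5.62% of all tested genes, and above them for 0.

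In the ADP-ribose group, Parp14 had 1.03, 0.906 and 0.661 CPM in fortified mutant cells, against 3.80, 1.97 and 1.44 CPM in fortified wild type cells. The groups were separate, with a log2 fold change of -1.47 (SE 0.50, adjusted p = 0.939), or -0.98 without fortified wild type 1. Dtx3l, the ubiquitin ligase that pairs with Parp9, had 5.69, 2.85 and 2.98 CPM in mutant and 8.05, 7.93 and 5.78 CPM in wild type cells (-0.92, SE 0.33). Trim25 had 25.3, 16.4 and 9.18 CPM in mutant and 50.3, 48.5 and 23.7 CPM in wild type cells (-1.27, SE 0.46). Here fortified mutant 1 lay above fortified wild type 3. All 7 genes of this group were negative (median -0.92), and Herc6, an ISG15 ligase in mice (-0.61), was also without overlap.

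Among the sensors, Ddx58 (RIG-I) had 26.0, 18.9 and 15.9 CPM in mutant and 36.2, 29.8 and 26.1 CPM in wild type cells (-0.60, SE 0.24). Ifih1 had 1.48, 1.60 and 1.66 CPM in mutant and 3.56, 3.35 and 1.94 CPM in wild type cells (-0.90, SE 0.44). Both were without overlap, by a narrow gap for Ddx58. Eif2ak2 had 39.4, 28.1 and 24.6 CPM in mutant and 45.0, 39.2 and 42.8 CPM in wild type cells (-0.46, SE 0.20), with fortified mutant 1 just above the lowest wild type library.

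Of the effectors, Ly6e had 75.8, 58.0 and 44.1 CPM in mutant and 92.1, 101 and 85.0 CPM in wild type cells (-0.64, SE 0.22), without overlap. Lgals3bp, a secreted binding partner of galectin, had 24.6, 7.77 and 6.10 CPM in mutant and 26.0, 26.7 and 23.9 CPM in wild type cells (-1.0, SE 0.47), and fortified mutant 1 lay inside the wild type range. The genes with the largest differences at moderate folic acid were closer here: Oas1a had -0.18, Ifit1 -0.41, Oasl1 0.42 and Cxcl10 0.50. Cxcl10 had 0.696, 0.863 and 1.09 CPM in mutant and 0.415, 0.567 and 0.895 CPM in wild type cells, which overlapped. B2m had 279, 248 and 181 CPM in mutant and 259.9, 391 and 268 CPM in wild type cells (-0.38, SE 0.25), also with overlap. Gbp2 (0.36) and Cmpk2 (0.25) were the other positive genes.

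The fortified mutant libraries were not alike. Fortified mutant 1 had 23 of 44 genes below the fortified wild type mean, with a median log2 difference of -0.01, whereas fortified mutant 2 and 3 each had 37 of 44 below it, with medians of -0.68 and -0.78. These libraries also differed over all genes. On the second principal component of all genes fortified mutant 1 had -62.9, fortified mutant 2 had 3.90 and fortified mutant 3 had 6.55. The fortified wild type libraries had -37.7, -35.3 and -55.8 there. Without fortified mutant 1 the median was -0.82. Fortified mutant 2 and 3 are also the mutant libraries at the positive end of the first component. Without them and moderate wild type 1 the median was -0.06 and 23 of 44 genes were negative, with 1 mutant library left. With moderate wild type 2 and 3 left out it was -0.49. The size of the genotype difference at fortified folic acid therefore rested on which mutant libraries entered. Macrophage markers were lower in 14 of 14 cases in fortified mutant cells (median -1.14) and skeletal muscle markers higher in 13 of 13 (median 1.16); their part in the result was not tested.

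Averaged over both folic acid levels, 42 of 44 genes were lower in mutant cells, against 55.3% of all tested genes, with a median of -0.73 (all tested genes -0.02), and Gbp2 (0.32) and Iigp1 (0.24) were the 2 positive ones. At an unadjusted p under 0.05 there were 24 genes of the set, all lower, against 3.09% of all tested genes that were lower at this p. None passed edgeR's test, with a lowest adjusted p of 0.986, DESeq2 called 0 and the background was 0%. The 24 genes included all 7 of the ISG15, ubiquitin and ADP-ribose group, 3 of 4 sensors, 8 of 15 effectors, 2 of 5 GTPases (Igtp and Gbp7), 2 of 4 class I genes (H2-D1 and B2m) and 1 of 4 each of the transcription factors (Irf7) and OAS genes (Oas1a). Dtx3l (-0.90, SE 0.24), Ifih1 (-1.14, SE 0.31), Oas1a (-1.39, SE 0.39) and Xaf1 (-0.96, SE 0.27) had the smallest p. All 6 mutant libraries lay below all 6 wild type libraries for 0 genes of the set, against 0.0395% of all tested genes. Without fortified mutant 2, fortified mutant 3 and moderate wild type 1 the set had a median of -0.40, and the value with moderate wild type 2 and 3 left out was -0.59.

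**Figure D3:**
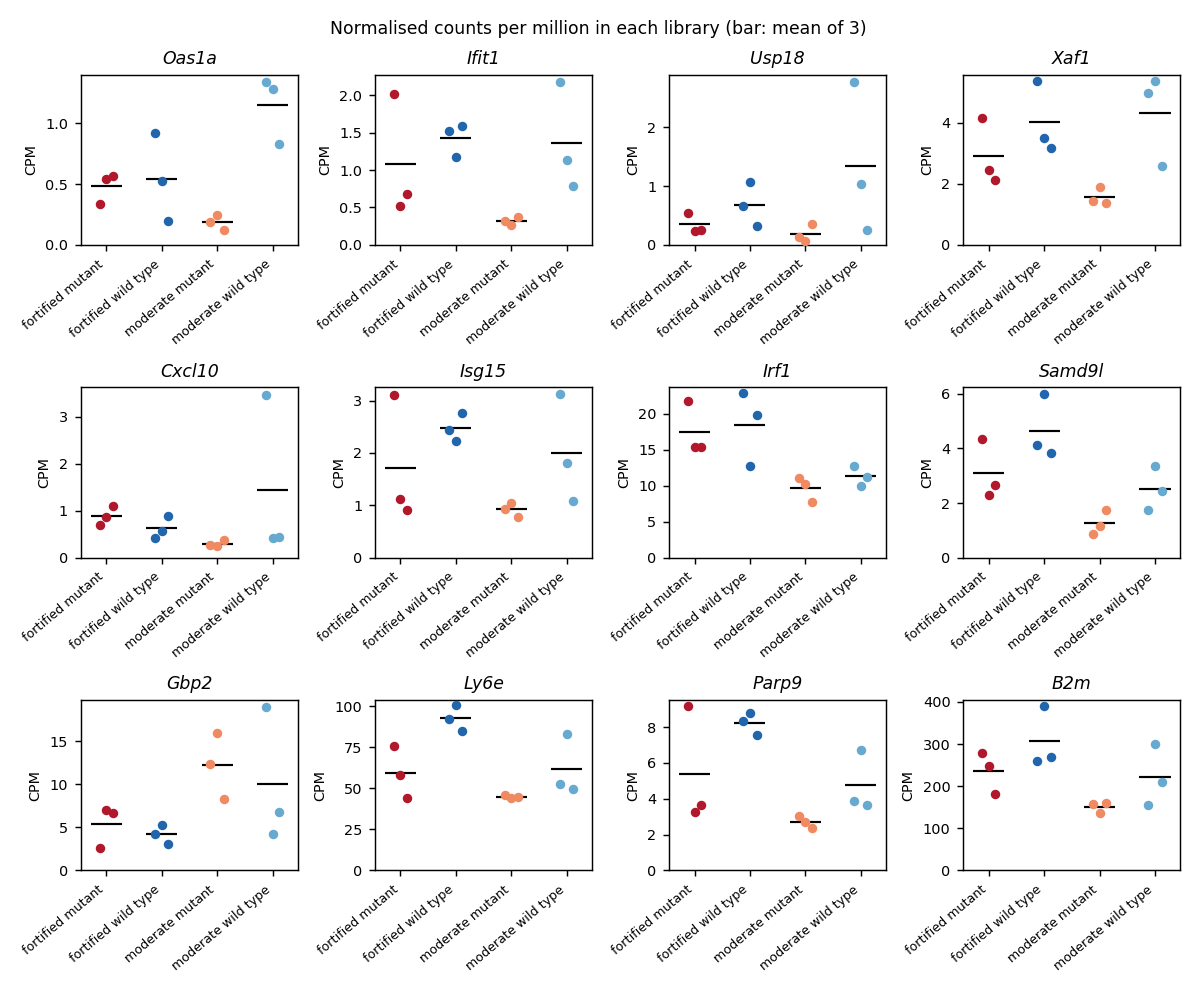
CPM of 12 genes in each library (points) with the mean of the 3 libraries of a group (bar); from left to right fortified mutant, fortified wild type, moderate mutant and moderate wild type. Oas1a, Ifit1 and Xaf1 are lowest in moderate mutant cells, Irf1 and Samd9l are higher at fortified folic acid in both genotypes, and Gbp2 is lower there.

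The effect of folic acid was examined first in mutant cells. Fortified mutant cells had higher values than moderate mutant cells for 35 of 44 genes, against 53% of all tested genes, led by Irf1, Samd9l, Ifit1 and B2m, and lower values for Gbp2 and Ifit2. The median was 0.43 (all tested genes 0.04). No gene of the set passed edgeR's test, although 6.93% of all tested genes did. DESeq2 called 3 of the 44, Irf1, Samd9l and Ifit1, against 2414 of all 15186 tested genes. It gave no adjusted p for 9 of the 44 and for 1785 of all tested genes, which could not be called. By limma on log2(TPM + 1) the median was 0.03 and 24 of 44 genes were positive, on a scale where the median of all tested genes was -0.23. With an unadjusted p under 0.05 there were 9 higher genes of 44, against 13.5% of all tested genes, and 1 lower gene, against 12.2%. Without fortified mutant 1 there were 3 higher and 1 lower genes and the median was 0.18; without moderate mutant 1 or moderate mutant 3 there were 5 genes in all. Fortified libraries lay above moderate ones without overlap for 14 genes, against 19.6% of all tested genes, and below them for 2, against 18.5%.

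Irf1, the transcription factor that carries much of the type II response, had 21.8, 15.4 and 15.4 CPM in fortified mutant cells, against 11.1, 10.3 and 7.73 CPM in moderate mutant cells (0.85, SE 0.25, adjusted p = 0.0626). Samd9l had 4.34, 2.29 and 2.64 CPM in fortified and 0.874, 1.16 and 1.73 CPM in moderate mutant cells (1.30, SE 0.40). Ifit1 had 2.02, 0.518 and 0.683 CPM in fortified and 0.312, 0.268 and 0.375 CPM in moderate mutant cells (1.75, SE 0.57). The groups were separate in all 3, and fortified mutant 1 was the highest in each. Without it Ifit1 had 0.91.

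B2m had 279, 248 and 181 CPM in fortified and 158, 136 and 159.8 CPM in moderate mutant cells (0.64, SE 0.25). Parp9 had 9.15, 3.24 and 3.67 CPM in fortified and 3.04, 2.71 and 2.35 CPM in moderate mutant cells (0.99, SE 0.40), and without fortified mutant 1 it had 0.35. Irf7 had 1.10, 0.345 and 0.547 CPM in fortified and 0.167, 0.291 and 0.125 CPM in moderate mutant cells (1.75, SE 0.72). These 3 genes did not overlap either, and Parp9 was separated mainly by 1 library. Oas1a had 0.337, 0.539 and 0.569 CPM in fortified and 0.187, 0.246 and 0.125 CPM in moderate mutant cells (1.35, SE 0.57), here with fortified mutant 1 as the lowest of its group. Epsti1 had 0.274, 0.0432 and 0.251 CPM in fortified and 0.0208, 0.0894 and 0 CPM in moderate mutant cells, which overlapped. Cxcl10 (1.57), the nucleotide kinase Cmpk2 (1.13) and Oas2, with 12, 2 and 5 counts in fortified and 1, 1 and 0 counts in moderate mutant libraries, were above without overlap. Gbp2, a GTPase that attacks the vacuoles of intracellular microbes, had the opposite sign, with 2.61, 6.99 and 6.63 CPM in fortified and 12.3, 15.9 and 8.33 CPM in moderate mutant cells (-1.17, SE 0.53).

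Without fortified mutant 2, fortified mutant 3 and moderate wild type 1, 1 fortified mutant library remained, and 38 of 44 genes were positive. Samd9l then had 1.76, Ifit1 2.63, Isg15 1.71, Ifi35 1.16, Parp9 1.73 and Gbp2 -2.25. The library left was fortified mutant 1, the highest of its group for these 5 higher genes and the lowest for Gbp2, and the fit assumes that it varies like the other groups. Leaving out moderate wild type 2 and 3 gave a median of 0.43, with 1.57 for Cxcl10 and 1.30 for Samd9l. Cycling genes were higher in 12 of 12 cases in fortified mutant cells (median 1.15; summed 743 to 1379 TPM in fortified and 568 to 587 TPM in moderate mutant cells), and their part in the result was not tested.

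In wild type cells the set was divided. Fortified cells had higher values for 27 genes (46.8% of all tested genes) and lower values for 17, with a median of 0.15 (all tested genes -0.04). None passed edgeR's test (background 0.0263%, 4 genes) and DESeq2 called 0 of them, with no adjusted p for 2 of the 44. At an unadjusted p under 0.05 3 of 44 genes were higher (Irf1, Ly6e and Samd9l), against 9.67% of all tested genes, and 3 lower (Oasl1, Ifit2 and Gbp2), against 9.98%. Leaving out 1 library took these 6 to between 3 (without fortified wild type 1) and 13 (without moderate wild type 2); fortified mutant 1 left out gave 12. Fortified libraries lay above moderate ones without overlap for 6 genes, against 11% of all tested genes, and below them for 2, against 9.67%. All 4 transcription factors and 6 of the 7 ISG15, ubiquitin and ADP-ribose genes were positive, whereas 3 of 4 OAS genes and Cxcl10 (-1.20) were negative.

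Irf1 had 22.9, 12.8 and 19.8 CPM in fortified wild type cells, against 12.8, 9.90 and 11.2 CPM in moderate wild type cells (0.71, SE 0.25), and the lowest fortified library was level with the highest moderate one. Ly6e had 92.1, 101 and 85.0 CPM in fortified and 52.7, 83.2 and 49.4 CPM in moderate wild type cells (0.59, SE 0.22). Samd9l had 4.12, 5.98 and 3.82 CPM in fortified and 1.73, 3.37 and 2.46 CPM in moderate wild type cells (0.88, SE 0.39). Ly6e and Samd9l were separate between the groups. Ddx58 had 36.2, 29.8 and 26.1 CPM in fortified and 22.6, 26.7 and 16.0 CPM in moderate wild type cells (0.49, SE 0.24). Dtx3l had 8.05, 7.93 and 5.78 CPM in fortified and 3.44, 6.02 and 3.99 CPM in moderate wild type cells (0.70, SE 0.33). In both, moderate wild type 2 reached into the fortified range. Epsti1 (1.05), Lgals3bp (0.80), Parp9 (0.79) and Ifi35 (0.40) were above without overlap.

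Oasl1 had 0.196, 0.136 and 0.0873 CPM in fortified and 0.498, 0.437 and 0.252 CPM in moderate wild type cells (-1.48, SE 0.54), without overlap, as had Bst2 (-0.41). Ifit2 had 16.4, 20.4 and 16.0 CPM in fortified and 17, 24.9 and 51.6 CPM in moderate wild type cells (-0.82, SE 0.35), and Gbp2 had 4.28, 5.30 and 3.06 CPM in fortified and 18.9, 4.27 and 6.79 CPM in moderate wild type cells (-1.25, SE 0.54). Each of these differences came mainly from 1 moderate library: without moderate wild type 3 Ifit2 had -0.25, and without moderate wild type 1 Gbp2 had -0.39. Leaving out moderate wild type 2 and 3, Ifit2 had 0.06 and the median of the set was 0.06. Without fortified mutant 2, fortified mutant 3 and moderate wild type 1, 30 of 44 genes were positive. Iigp1 then had 2.92, Oasl2 1.70, Ifit2 -1.11 and Ifit3 -1.51. Fibroblast markers were higher in 11 of 12 cases in fortified wild type cells (median 1.43), and their part in the result was not tested.

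**Figure D4:**
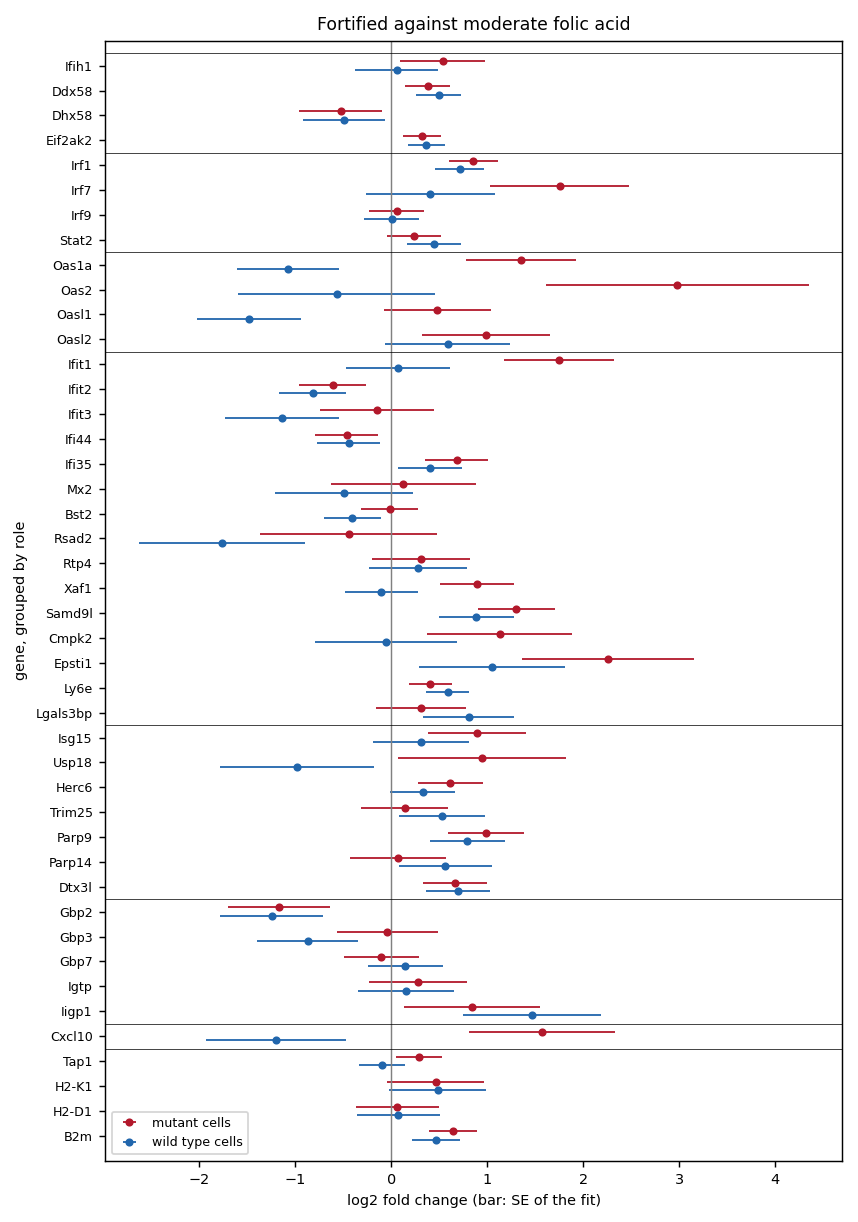
Log2 fold changes of fortified against moderate folic acid for the 44 tested genes, in mutant (dark red) and wild type (blue) cells; bars are standard errors of the edgeR fit. Irf1, Samd9l, Parp9 and Ly6e lie right of 0 and Gbp2 and Ifit2 left of 0 in both genotypes, while Oas1a, Oas2, Oasl1 and Cxcl10 lie on opposite sides.

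Averaged over both genotypes, 5 of the 44 genes passed edgeR's quasi-likelihood test with Benjamini-Hochberg adjustment, fewer for their number than the background of 17.8% of all tested genes. Irf1 rose in fortified cells by 0.78 on the log2 scale (SE 0.18, adjusted p = 0.0150) and Samd9l by 1.09 (SE 0.28, adjusted p = 0.0225). Parp9 rose by 0.89 (SE 0.28, adjusted p = 0.0478) and Ly6e by 0.50 (SE 0.16, adjusted p = 0.0494). Gbp2 fell by 1.21 (SE 0.38, adjusted p = 0.0462). B2m had 0.55 (SE 0.18) with an adjusted p of 0.0519. In all 33 genes were positive (50% of all tested genes) and 11 negative, with a median of 0.34 (all tested genes 0.00), and the fortified and moderate libraries overlapped for all 44 (6.37% of all tested genes did not overlap). Unadjusted p-values under 0.05 were found for 13 higher genes, against 17.5% of all tested genes, and 2 lower genes, against 16.4%; without fortified wild type 1 there were 9 in all.

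The split of 4 higher to 1 lower differed under other scalings and measures. With median-of-ratios scaling it was 3 to 1, with library totals alone it was 2 to 2 (Irf1 and Samd9l higher, Gbp2 and Ifit2 lower), and by limma on log2(TPM + 1) it was 1 to 3 (Samd9l higher, and Gbp2, Ifit2 and Ifi44 lower). The TPM scale moved the median of all tested genes to -0.15 in this comparison, and relative to that the median of the set was 0.23. Irf1 passed in all 12 fits that left out 1 library and Samd9l in 9, not passing without fortified wild type 2, moderate mutant 1 or moderate mutant 2. Parp9 passed in 3 of these 12 fits, Ly6e in 2 and Gbp2 in 2. The count of passing genes ran from 1 without fortified wild type 2 or moderate mutant 1 to 9 without moderate wild type 1. In the fit with 9, 4025 of all 15363 tested genes passed. Values without fortified mutant 2, fortified mutant 3 and moderate wild type 1 included Isg15 (1.25), Ifit1 (1.61), Irf7 (1.86), Oasl2 (1.69), Lgals3bp (0.88), Dtx3l (0.87) and Gbp2 (-1.32). With moderate wild type 2 and 3 left out 30 of 44 genes were positive. Samd9l then had 1.36, B2m 0.82, Ifi35 0.95, Ly6e 0.61 and Gbp2 -1.67. Cycling genes were higher in 11 of 12 cases at fortified folic acid and macrophage markers lower in 13 of 14, and their part in the result was not tested.

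The interaction asked whether the genotype difference was the same at both folic acid levels. No gene of the set passed (background 0%, lowest adjusted p 0.708, and DESeq2 called 0), so a change of the genotype difference with folic acid was not shown for any of the 44. At an unadjusted p under 0.05 there were 3 genes, all positive, against 4.55% of all tested genes that were positive at this p (7 without moderate wild type 3 and 5 without fortified mutant 2): Oas1a (2.43, SE 0.78), Cxcl10 (2.77, SE 1.06) and Oasl1 (1.96, SE 0.78). All 4 tested OAS genes were positive, with a median of 2.20, while 30 of the 44 genes were positive (53% of all tested genes) with a median of 0.24 (all tested genes 0.04). By limma on log2(TPM + 1) the sign of the median turned, to -0.07, where all tested genes had -0.16. Without fortified mutant 2, fortified mutant 3 and moderate wild type 1 the set had a median of 0.66. With moderate wild type 2 and 3 left out the median was 0.28 and Cxcl10 had 4.02. Without moderate wild type 1 Cxcl10 had 1.01, while Oas1a ran from 2.03 to 3.00 over the 12 fits that left out 1 library.

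The genes moved together from library to library. The median pairwise correlation of log2 CPM over the 12 libraries was 0.44 among the 44 genes, against -0.003 for pairs of all tested genes, and 0.28 within groups, against 0.00 for all. These are descriptions over 12 libraries that share their depth and their group structure. Xaf1 followed the mean of the others most closely (r = 0.97), then Isg15 (0.92), Ifit1 (0.91), Herc6 (0.91) and Ddx58 (0.90). Gbp2 (r = -0.49), Dhx58, a regulator of the RNA sensors (-0.08), Ifit2 (-0.08) and Ifi44 (-0.07) did not follow it. The median biological coefficient of variation was 0.390, against 0.262 for all tested genes, which were more highly expressed, and 17 of the 44 genes lay above the trend for their own level.

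The mean of all 44 genes in a library, in log2 units relative to the 12-library mean, was 0.36, -0.34 and -0.38 in fortified mutant, 0.55, 0.35 and 0.24 in fortified wild type, -0.52, -0.42 and -0.65 in moderate mutant and 0.48, 0.42 and -0.11 in moderate wild type cells. The moderate mutant libraries were the 3 lowest, and fortified mutant 1 lay within the range of the fortified wild type libraries. Moderate mutant 3 held the lowest value of all libraries in 17 of the 44 genes.

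**Figure D5:**
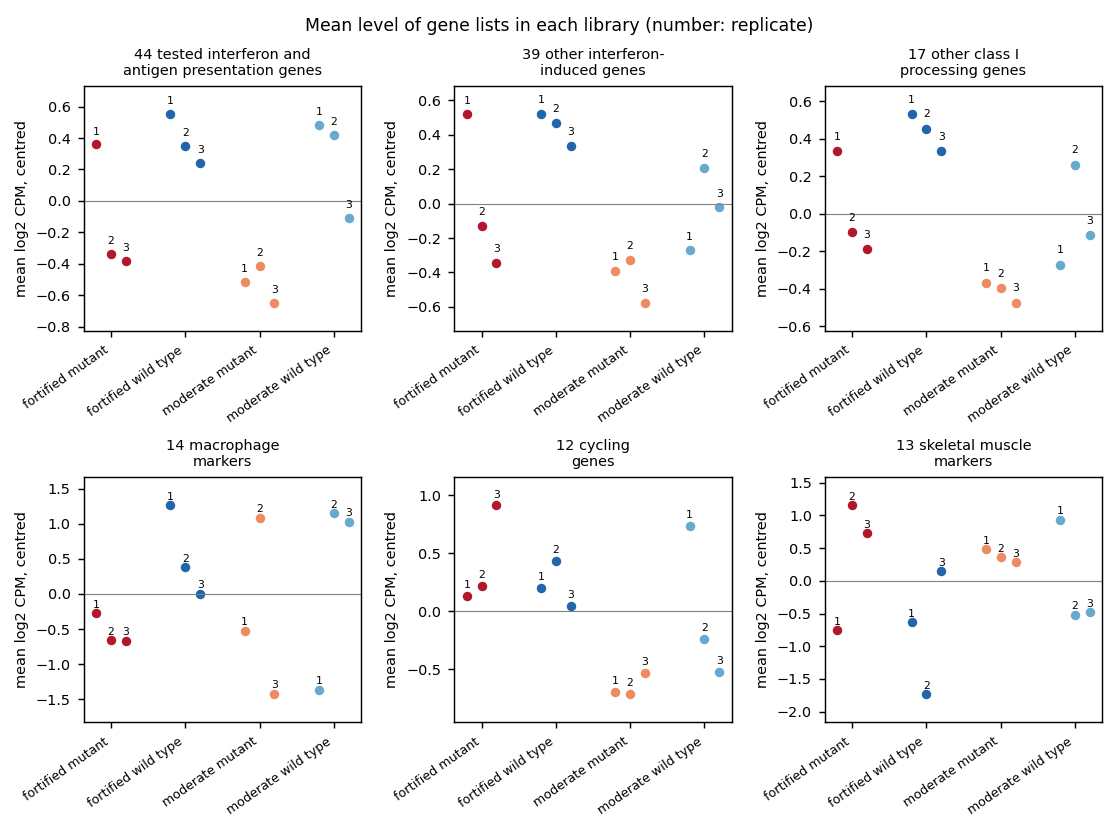
Mean log2 CPM of 6 gene lists in each library (points, numbered by replicate), centred on the mean of all 12 libraries, by group. The other interferon-induced and class I processing genes broadly follow the 44 genes, with fortified mutant 1 high among its group. Moderate wild type 1 is an exception, low in these lists (-0.27 and -0.27) and high in the 44 genes (0.48). The macrophage, cycling and muscle lists order the libraries differently.

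The other genes of the pathway are given by list. Over the 12 libraries, which share their groups and depth, the mean of 39 other interferon-induced genes had r = 0.81 with the mean of the 44 genes, and that of 17 other class I processing genes had r = 0.80. In moderate wild type 1 both lists lay below their own means (-0.27 and -0.27), where the 44 genes had 0.48. Of the cell type lists, macrophage markers had r = 0.35, cycling genes 0.46, skeletal muscle markers -0.53 and 2 T, B and dendritic cell markers -0.51. At moderate folic acid 30 of the 39 interferon-induced genes and 17 of the 17 class I processing genes were lower in mutant cells. At fortified folic acid 33 of 39 and 14 of 17 were. Of all tested genes 56.4% were lower at moderate and 49% at fortified folic acid. None of these genes passed in either comparison. The smallest p belonged to the ribonuclease subunit Rnaseh2c (-0.77, SE 0.22), the class I gene H2-Q4 (-1.08, SE 0.31) and STING (Tmem173, -0.58, SE 0.19) at moderate, and to the coactivator Helz2 (-0.94, SE 0.29), the adhesion molecule Vcam1 (-0.75, SE 0.30) and the class I gene H2-M3 (-0.82, SE 0.35) at fortified folic acid.

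More of these genes passed for folic acid averaged over the genotypes, against the same background of 17.8%. Of the 39 other interferon-induced genes 11 rose in fortified cells and 0 fell: Ifitm1 (1.89), Ifitm2 (0.81) and Ifitm3 (0.87), which block virus entry, Apol9a (1.97) and Apol9b (1.76), Slfn2 (1.64) and Slfn9 (0.87), Uba7 (1.41) and Ube2l6 (1.08), the activating and conjugating enzymes of ISG15, Nmi (0.83) and Ifi47 (0.96). Of the 17 class I processing genes 6 rose and 0 fell: the proteasome activator subunits Psme1 (0.59) and Psme2 (0.53), the immunoproteasome subunit Psmb10 (0.56), tapasin (Tapbp, 0.80) and the class I genes H2-T22 (1.07) and H2-T23 (1.45). Among 21 sensing adaptors and nucleases Rnaseh2c (1.17), Tmem173 (0.52) and Ticam1 (0.67), the adaptor of TLR3, rose, and Adar, the enzyme that edits double-stranded RNA and keeps it from the sensors, fell by 0.74. Of 12 ligand receptor and JAK-STAT genes Ifngr2 (0.50) and the feedback inhibitor Socs3 (1.19) rose, and of 17 NF-kappaB inflammatory genes the chemokines Ccl7 (1.16) and Cxcl5 (1.87) did. None of 5 class II presentation genes passed.

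In mutant cells alone 6 genes of these lists, which hold 39, 17, 21, 12, 17 and 5 tested genes, passed for folic acid. Of all tested genes 6.93% passed there. Rnaseh2c (1.73, SE 0.22, adjusted p = 0.00621), Rnaseh2b (0.87), Ube2l6 (1.29), Apol9b (2.40) and Psme2 (0.69) rose, and Adar fell by 0.91 (SE 0.17, adjusted p = 0.0213). Adar had mean levels of 12.1 TPM in fortified mutant, 13 in fortified wild type, 28.5 in moderate mutant and 20.7 in moderate wild type cells. In wild type cells alone none passed, and the smallest p belonged to Apol9a (2.02, SE 0.56), Ifitm3 (0.88, SE 0.25) and Ticam1 (0.95, SE 0.27).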

How the data were processed

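The authors deposited 1 table of expected counts (salmon's estimated counts per gene) and 1 table of TPM per gene; neither salmon's version nor the annotation is named in these sources, and the genome is mm10 per the submitters' processing notes. Libraries were made from polyadenylated RNA with a Tecan kit, per the labels' protocols. The column names do not give the diet, which rests on the column numbers in the submitters' descriptions. Expected counts were rounded and tested with edgeR 4.0.16 in R 4.3.3 (filterByExpr, minimum count 10 and minimum total 15; TMM; glmQLFit and glmQLFTest) in 1 model of 4 groups over 12 libraries, with p adjusted by Benjamini-Hochberg over 15186 genes and a threshold of 0.05. The common biological coefficient of variation was 0.332, and depth limits mainly the genes with few counts. SEs are those of the fit. Duplicates were looked for only within groups, and none was found. The closest pair was moderate mutant 1 and 2, with a mean chi-square per gene of 19.6, against 64.5 to 347 for the other pairs. Alternatives were DESeq2 1.42.0, limma 3.58.1 (voom with quality weights, log2(TPM + 1) and log2(TPM + 0.1)), other scalings and filters, a replicate block, Xist as a covariate, only the groups compared, and leaving out each library; leaving out 3 libraries, leaving out another 2 and leaving out genes with near copies were chosen after seeing the data. The genes, lists and tests were chosen with earlier results of these data known. Named were the 8 genes with the smallest p in each pairwise comparison, the highest of each role, those without overlap and a log2 fold change of at least 1, and other pathway genes that passed or had the 3 smallest p; 1 further gene of the rule is not reported here. The fit was tested on simulated data.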

Additional observations from a re-analysis of the deposited data

How the results depend on the processing

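The sign of the median log2 fold change was the same as in the edgeR fit in all 25 alternatives that kept the whole set for each pairwise comparison and in all 24 for each average; for the interaction it was the same in 20 of 24. The medians of mutant against wild type at moderate folic acid were -0.27 with log2(TPM + 1) and -0.55 with log2(TPM + 0.1), those of fortified against moderate folic acid in mutant cells 0.0283 and 0.0588, those of the interaction -0.0742 and -0.0849, and the averaged genotype median was -0.33 with log2(TPM + 1). The TPM scale also moved the medians of all tested genes; relative to those, the values were -0.39 and -0.71 at moderate folic acid, 0.25 and 0.36 in mutant cells, and 0.09 and 0.13 for the interaction. At fortified folic acid the genotype median was -0.78 by limma-voom. Without fortified mutant 2, fortified mutant 3 and moderate wild type 1 it was -0.0565 there, -0.40 averaged, 0.86 for folic acid in mutant cells and 0.66 for the interaction. Over fits that left out 1 library it ran from -0.82 to -0.32 at fortified folic acid and from -0.0533 to 0.36 for the interaction, the lowest of each without fortified mutant 1.

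For folic acid averaged over genotypes, 5 genes passed by edgeR, 8 by DESeq2, 3 with no filter on low counts, 3 with the replicate block (Gbp2 and Parp9 no longer passing), 3 with Xist as a covariate, and 15 without these 3 libraries. Leaving out 1 library gave from 1 (without moderate mutant 1 or fortified wild type 2) to 9 (without moderate wild type 1). By edgeR 2696 of all 15186 tested genes passed. Without moderate mutant 1 that number was 1788 of 15396, and without moderate wild type 1 it was 4025 of 15363. In mutant cells 0 passed by edgeR, 3 by DESeq2, 8 by limma-voom, 1 with log2(TPM + 0.1), 1 with only the groups compared and 6 without these 3 libraries, and 0 to 4 with 1 library left out, 4 without moderate wild type 1. In wild type cells 0 to 2 passed with 1 library left out, 2 without moderate wild type 1, where 1012 of all 15363 tested genes passed. At moderate folic acid DESeq2 called 2 genes for genotype, against 50 of all 15186 tested genes. Without moderate wild type 2 and 3, Ifit2 turned to 0.0591 for folic acid in wild type cells. The causes were not tested. The replicate block changed no other call. Replicate numbers did not pair libraries: 4 of 18 same-number pairs had a correlation of deviations over 0.1. The lowest genes rest on few counts, so depth limits their values.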
